A study of Mus musculus with 18 samples.

Results

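The genes of AMP-activated protein kinase (AMPK) and of the kinases that switch it on were followed through RNA-seq of mouse marrow-derived mesenchymal stem cells (MSC). The family held 8 genes of the 54347 in the deposited table, chosen by their symbols: the catalytic subunits Prkaa1 and Prkaa2, the scaffold subunits Prkab1 and Prkab2, the nucleotide-binding subunits Prkag1 and Prkag2, and the upstream kinases Stk11 (LKB1) and Camkk2. Every one of the 8 had reads in all 18 libraries. MSC are adherent marrow progenitors that can become fat or bone cells, and all cells here came from the marrow of male C57BL/6J mice. In the first experiment untransfected cells were left untreated (control), or received CK666, which inhibits Arp2/3 and so the branching of actin filaments, or cytochalasin D (CytoD), which blocks the growth of actin filaments. In the second experiment every group was transfected: siControl cells, titled siRNA control and listed under treatment as siRNA mock, siArp4 cells, given an siRNA against the actin-related protein Arp4, and siArp4+CK666 cells, given that siRNA and CK666. Each of the 6 groups had 3 libraries from distinct preparations, all from a primary cell line that the study made from several mice, so the preparations are cultures of a shared source and p-values measure the spread between cultures, not between animals. No siControl cells with CK666 were among the samples analysed, so the response to CK666 was not seen in transfected cells with normal Arp4.

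AMPK is a trimer of 1 catalytic alpha, 1 scaffold beta and 1 nucleotide-binding gamma subunit that senses falling cellular energy. When AMP or ADP replaces ATP on the gamma subunit, the activation loop of alpha is kept phosphorylated by LKB1, while CaMKK2 phosphorylates the same site in response to calcium. The active kinase restrains fat, sterol and protein synthesis and promotes glucose uptake, fat oxidation and autophagy, and in marrow MSC it has been studied for its part in the choice between fat and bone. Transcript levels, which are what was measured here, do not report phosphorylation or activity.

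The depth of the libraries ran from 18075610 to 24733212 estimated counts, and all 8 genes had counts high enough to be tested in every comparison. Normalized counts below are estimated counts divided by the size factor of the library within its own experiment. Actl6a, the gene of Arp4, stood at 720 to 1127 normalized counts in siControl, 19.0 to 57.2 in siArp4 and 9.52 to 22.9 in siArp4+CK666, so the knockdown was seen in all 6 transfected libraries that received the siRNA. Of 9 markers of MSC, Pdgfra, Pdgfrb, Itgb1, Ly6a and Cd44 were above 100 normalized counts in every library, Eng and Lepr were low, Thy1 was at 0 in all 18, and Nt5e stayed under a mean of 10 in every group. The 5 leukocyte and macrophage markers summed to 122 to 358, with Ptprc and Adgre1 at 0 in all libraries but siArp4+CK666 replicate 3. The others read 12.4 to 181 (Csf1r), 40.8 to 127 (Cd14) and 15.2 to 113 (Cd68). The 4 endothelial markers summed to at most 25.8, and the 6 muscle markers to 1.03 to 185, with Myog, Ckm and Myh1 at or near 0. Of these Acta1 moved with the groups. It read 30.0 to 36.2 in control, 3.93 to 6.12 with CK666 and 1.03 to 14.5 with CytoD. In transfected cells it read 75.4 to 181 with siControl, 64.1 to 97.2 with siArp4 and 5.72 to 17.9 with siArp4+CK666. In siControl replicate 2, genes with transcripts of 5000 bases or more were low against genes under 2000 bases by 1.26 on the log2 scale (-1.26, relative to the experiment median) and GC-rich genes were high against GC-poor ones by 0.99. The same length measure was 0.52 in siControl replicate 1, -0.43 in siControl replicate 3 and 0.67 in siArp4+CK666 replicate 1, and in the first experiment it was -0.78 in CK666 replicate 1. The results that these libraries bear on most are also given without them. In bulk libraries fewer cells of a type and less RNA per cell cannot be told apart.

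The catalytic subunits divided in their response to CK666. Prkaa2, which encodes alpha 2, the catalytic form best known from muscle, was the scarce one and was high in both groups that received CK666, while Prkaa1, which encodes the broadly expressed alpha 1, was not higher in either. The 250 bases upstream of the RefSeq start of each gene (GRCm38.p6) are shown because the 2 genes encode interchangeable subunits with different responses. Prkaa1 starts on the plus strand of chromosome 15 (upstream bases chr15:5143611-5143860, GC content 85.2%), and Prkaa2 on the minus strand of chromosome 4 (upstream bases chr4:105109899-105110148, GC content 70.0%), against a median GC content of 52.4% over 32817 promoters. Both are written 5′ to 3′ on the strand of the gene, with capitals for GC boxes (GGGCGG on either strand).
Prkaa1: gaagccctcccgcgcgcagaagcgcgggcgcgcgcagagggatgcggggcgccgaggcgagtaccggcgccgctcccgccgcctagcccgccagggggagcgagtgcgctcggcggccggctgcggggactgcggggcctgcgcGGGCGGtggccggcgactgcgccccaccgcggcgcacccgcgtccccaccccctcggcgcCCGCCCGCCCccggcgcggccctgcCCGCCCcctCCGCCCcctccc
Prkaa2: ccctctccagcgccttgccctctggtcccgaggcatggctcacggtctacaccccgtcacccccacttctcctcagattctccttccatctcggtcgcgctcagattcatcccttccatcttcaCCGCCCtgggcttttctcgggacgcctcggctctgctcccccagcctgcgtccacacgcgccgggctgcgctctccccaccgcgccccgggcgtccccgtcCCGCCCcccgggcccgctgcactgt
Prkaa1 had 5 GC boxes, at -106, -46, -42, -21 and -12 from the start, those at -46 and -42 sharing letters, and Prkaa2 had 2, at -126 and -25. A GC box was found in 32.7% of all promoters over the same 250 bases. Neither window held any of the other motifs searched on both strands, which were CCAAT (33.8% of all promoters), TATAAA (12.4%), GGAATG, a TEAD site (12.6%), CACGTG, an E-box (6.02%), TGATGNAA, an ATF4 element (3.45%), and TGACGTCA, a CRE (1.55%). These matches describe the letters of the windows only.

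Prkaa2 (chr4:105029874-105109890, minus strand) read 49.3, 62.3 and 35.2 normalized counts in the control replicates, 148, 271 and 238 in the CK666 replicates, and 78.7, 54.2 and 54.6 in the CytoD replicates. Every CK666 library was above every control and CytoD library, and control and CytoD overlapped. Its rise with CK666 was already known when the family was put together, so the log2 fold changes of 2.16 (SE 0.317) against control, a 4.47-fold difference, and 1.81 (SE 0.313) against CytoD are given as a description with no test. Without CK666 replicate 1 they were 2.38 and 2.03. Against control, Prkaa2 with CytoD differed by 0.35 (log2, SE 0.330, 95% interval -0.297 to 0.995; DESeq2 adjusted p = 0.432), which did not pass the test.

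In the transfected cells Prkaa2 read 68.7, 13.8 and 15.9 normalized counts with siControl, 80.0, 56.2 and 85.2 with siArp4, and 252, 226 and 179 with siArp4+CK666. All siArp4+CK666 libraries lay above all others of that experiment, and siControl replicate 1 lay within the siArp4 range. Against siControl, Prkaa2 rose with siArp4+CK666 by 2.72 (log2, SE 0.542), a 6.59-fold difference (DESeq2 adjusted p = 4.09e-06). That estimate was 2.36 (adjusted p = 1.06e-05) without siControl replicate 2, 3.87 (adjusted p = 1.22e-20) without siControl replicate 1 and 2.61 (adjusted p = 3.13e-04) without siArp4+CK666 replicate 1. The family was put together with the rise of Prkaa2 with CK666 known. The tests of Prkaa2 in this experiment may therefore not be independent of that choice. Against siControl, siArp4 alone gave a Prkaa2 difference of 1.15 (SE 0.548, adjusted p = 0.0901) that did not pass. Without siControl replicate 1 it became 2.30 (adjusted p = 1.63e-07), and without siControl replicate 2 it was 0.79 (adjusted p = 0.217). Of the 9 fits that each left out 1 library, only that without siControl replicate 1 passed, so whether siArp4 alone is called hangs on that library. Between siArp4+CK666 and siArp4 the difference was 1.57 (SE 0.531), or 2.97-fold, with an adjusted p of 0.0260 in the DESeq2 fit of all 9 libraries. The siControl libraries set part of the spread in that fit, and with the 6 libraries of the groups compared the estimate was again 1.57 and the adjusted p 4.94e-08. Without siArp4+CK666 replicate 1 it was 1.46 (adjusted p = 0.146).

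Prkaa1 (chr15:5143861-5181899, plus strand, in GENCODE models of GRCm38 as for the genes below) was the abundant catalytic subunit. Its normalized counts were 2855, 2693 and 2784 in control, 2060, 2582 and 2419 with CK666, and 3570, 3393 and 3720 with CytoD. The 3 groups did not overlap, CytoD being the highest and CK666 the lowest. Prkaa1 rose with CytoD by 0.36 (log2, SE 0.107, adjusted p = 0.00315), a 1.28-fold difference, although this did not pass with edgeR (adjusted p = 0.0122) or without any 1 of the control or CytoD libraries (adjusted p from 0.0139 to 0.0422). Against control the CK666 estimate was -0.24 (SE 0.107, adjusted p = 0.0632), and -0.15 (adjusted p = 0.0889) without CK666 replicate 1. Prkaa1 was lower with CK666 than with CytoD by -0.60 (SE 0.107, adjusted p = 1.98e-07), and the adjusted p of that difference was 0.0269 with all 18 libraries in the fit.

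Among transfected cells Prkaa1 stood at 1545, 626 and 1078 normalized counts with siControl, 1210, 1192 and 1422 with siArp4, and 1273, 1040 and 880 with siArp4+CK666. The siControl libraries alone spanned the other groups, the lowest being replicate 2. No difference of Prkaa1 passed in this experiment: the estimates were 0.23 for siArp4 (95% interval -0.39 to 0.86) and -0.03 for siArp4+CK666 (-0.65 to 0.60) against siControl, and -0.26 (-0.89 to 0.37) between the knockdown groups.

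**Figure D1:**
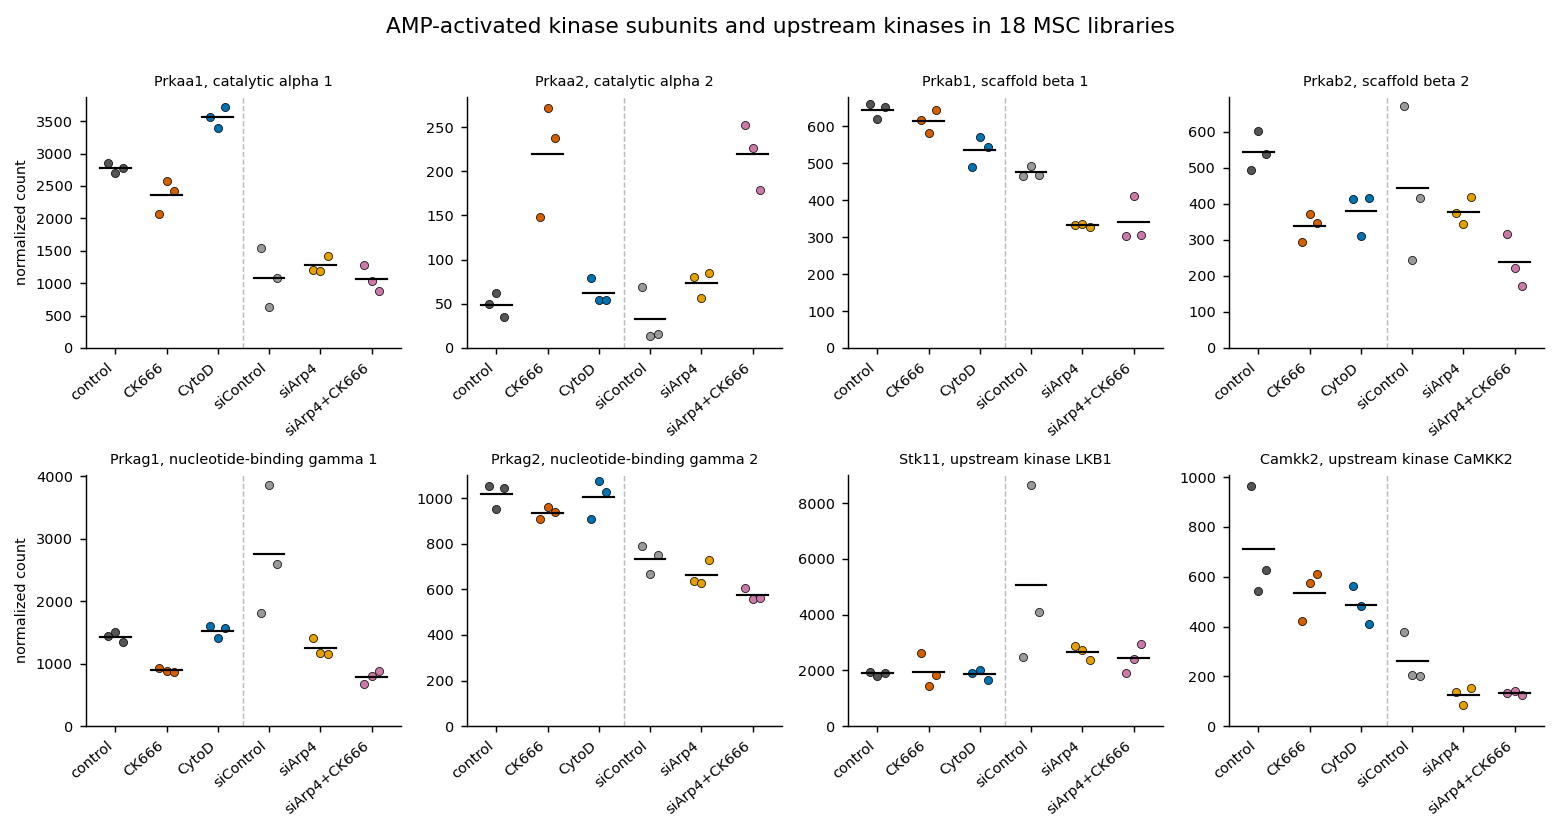
Normalized counts (y axes, starting at 0, with a scale of their own per gene) of the 8 genes in each library, by group on the x axes; points are libraries in replicate order, bars are group means, and the dashed line parts the experiments, whose size factors were computed separately. Prkaa2 lies between 148 and 271 with CK666 and between 179 and 252 with siArp4+CK666, and Prkag1 is lowest in the same groups.

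Scaled to exon length, Prkaa2 was a small part of the catalytic transcripts everywhere, and its share was highest where CK666 was given. The share of Prkaa2 in the sum of both alpha genes, each in estimated counts per kilobase of exon, was 1.02% ± 0.293 (SD, n = 3) in control, 5.09% ± 0.920 with CK666 and 1.01% ± 0.223 with CytoD. In the second experiment it was 1.55% ± 0.865 with siControl, 3.25% ± 0.525 with siArp4 and 10.8% ± 0.463 with siArp4+CK666. The siArp4+CK666 libraries read 10.4%, 11.3% and 10.7% and the siArp4 libraries 3.71%, 2.68% and 3.38%, all of which were above the 2.52%, 1.29% and 0.852% of siControl. The share compares genes within a library whose longest transcripts are alike in base composition, at 40.2% GC for Prkaa1 and 40.7% for Prkaa2, though not in length, at 4655 and 7969 bases. No p is given for the shares, which contain the Prkaa2 values that were known beforehand.

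The scaffold subunits carry the glycogen-binding domain and hold alpha and gamma together. Prkab2 (chr3:97658193-97673812, plus strand), encoding beta 2, read 492, 601 and 539 normalized counts in control, 294, 372 and 347 with CK666, and 413, 312 and 415 with CytoD. Control lay above both treatments, which overlapped with each other. Prkab2 fell by 0.69 on the log2 scale with CK666 (SE 0.168, adjusted p = 2.18e-04), a 1.61-fold difference, and by 0.52 with CytoD (SE 0.168, adjusted p = 0.00708). The fall with CytoD did not pass with edgeR (adjusted p = 0.0207) or without any 1 of the control or CytoD libraries or CK666 replicate 3 (adjusted p from 0.0124 to 0.0754), and the fall with CK666 did not with all 18 libraries in the fit (adjusted p = 0.0516). Without CK666 replicate 1 the CK666 estimate was -0.595 (adjusted p = 0.00121). In transfected cells its counts were 672, 244 and 415 with siControl, 374, 343 and 418 with siArp4, and 316, 222 and 173 with siArp4+CK666. The siControl range covered all but the lowest 2 siArp4+CK666 libraries. The estimate of -0.91 for siArp4+CK666 against siControl (SE 0.376, adjusted p = 0.0423) did not pass, and it was -1.20 (adjusted p = 3.81e-04) without siControl replicate 2, -1.16 (adjusted p = 0.0174) without siArp4+CK666 replicate 1 and -0.48 (adjusted p = 0.213) without siControl replicate 1. With the length trend of each library removed it passed at -1.03 (adjusted p = 5.83e-04), and with the GC trend removed it was -0.961 (adjusted p = 0.0121).

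Prkab1 (chr5:116013586-116024508, minus strand), encoding beta 1, moved little in untransfected cells, with 662, 618 and 651 normalized counts in control, 617, 582 and 644 with CK666, and 490, 572 and 544 with CytoD. CytoD was the lowest group and did not overlap with the others, and its estimate of -0.27 against control (SE 0.114, adjusted p = 0.0524) did not pass. With siControl Prkab1 read 465, 493 and 468, with siArp4 333, 336 and 328, and with siArp4+CK666 302, 412 and 305. Every library that received the Arp4 siRNA was below every siControl library. The estimates were -0.52 for siArp4 (SE 0.179, adjusted p = 0.0144) and -0.48 for siArp4+CK666 (SE 0.179, adjusted p = 0.0209), both short of the threshold of 0.01. Prkab1 passed in both comparisons when genes with low counts were removed before the fit, at adjusted p = 0.00515 and 0.00830, and without siArp4+CK666 replicate 2, at 0.00523 and 0.00165. With edgeR the adjusted p was 0.0274 and 0.0299. With the length trend of each library removed the estimates were -0.40 (adjusted p = 0.0824) and -0.30 (adjusted p = 0.206), and with the GC trend removed -0.36 (adjusted p = 0.148) and -0.29 (adjusted p = 0.252). Scaled to exon length, Prkab2 made up 33.7% ± 3.02 of the beta transcripts in control and 24.8% ± 2.78 with CK666.

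The gamma subunits bind AMP, ADP and ATP and so carry the energy sensor. Prkag1, encoding gamma 1, fell with CK666 and with the Arp4 siRNA. Prkag1 (chr15:98812797-98831521, minus strand) read 1438, 1512 and 1352 normalized counts in control, 935, 883 and 865 with CK666, and 1603, 1406 and 1577 with CytoD. All CK666 libraries were below all control and CytoD libraries, which overlapped. Prkag1 fell by 0.68 on the log2 scale with CK666 (SE 0.103, adjusted p = 4.03e-10), a 1.60-fold difference, and was lower with CK666 than with CytoD by -0.77 (SE 0.103, adjusted p = 7.59e-13). Without CK666 replicate 1 these were -0.71 (adjusted p = 4.26e-12) and -0.805 (adjusted p = 2.68e-15). CytoD against control gave 0.09 (95% interval -0.11 to 0.29, adjusted p = 0.511).

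After transfection Prkag1 read 1813, 3859 and 2600 normalized counts with siControl, 1417, 1175 and 1157 with siArp4, and 667, 800 and 885 with siArp4+CK666. The 3 groups did not overlap, although siControl spread more than 2-fold. Prkag1 fell by 1.14 with siArp4 (log2, SE 0.285, adjusted p = 4.01e-04), a 2.21-fold difference, and by 1.81 with siArp4+CK666 (SE 0.286, adjusted p = 2.81e-09), a 3.51-fold difference. Without siControl replicate 2 these were -0.83 (adjusted p = 9.92e-04) and -1.495 (adjusted p = 2.72e-10), so the first stayed past the adjusted p and dropped under 2-fold. Without siControl replicate 1 they were -1.37 (adjusted p = 2.16e-08) and -2.04 (adjusted p = 1.37e-17), and the second was -1.70 (adjusted p = 2.42e-06) without siArp4+CK666 replicate 1. With the length trend of each library removed they were -0.89 (adjusted p = 8.03e-10) and -1.483 (adjusted p = 1.39e-25). With the GC trend removed they were -0.998 (adjusted p = 4.07e-05) and -1.665 (adjusted p = 8.28e-13). The first stayed past the adjusted p and dropped under 2-fold in both of these. Between siArp4+CK666 and siArp4 the estimate was -0.67 (SE 0.286, adjusted p = 0.104) in the fit of all 9 libraries, and -0.67 with an adjusted p of 6.36e-04 in the fit of the 6 libraries compared. Exons of Prkag1 share 950 bases with B130046B21Rik on the other strand, which the unstranded libraries cannot separate, and that gene had a mean count of 20.8.

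Prkag2 (chr5:24862744-25100642, minus strand), encoding gamma 2, was the steadiest member, with group means within 0.77 of each other on the log2 scale. It read 1054, 953 and 1045 normalized counts in control, 907, 961 and 940 with CK666, and 907, 1075 and 1027 with CytoD, and the groups overlapped. None of its 3 comparisons passed (adjusted p from 0.403 to 0.907). In transfected cells it read 788, 668 and 749 with siControl, 638, 630 and 726 with siArp4, and 607, 556 and 561 with siArp4+CK666. The last group lay below both others, and its estimate against siControl was -0.36 (SE 0.146, adjusted p = 0.0385). As Prkag1 was lower, the share of Prkag2 in the gamma transcripts per exon length was 26.0% ± 1.26 with CK666 against 19.3% ± 1.62 in control, and 19.9% ± 3.06 with siArp4+CK666 against 9.01% ± 3.62 with siControl.

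Prkag3, the gamma 3 gene known from skeletal muscle, is not one of the 8 and was low. It read 75.5, 71.1 and 62.1 normalized counts in control, 23.6, 21.4 and 38.1 with CK666 and 57.4, 62.9 and 63.9 with CytoD, so that CK666 was the lowest group with no overlap. Prkag3 fell by 1.32 with CK666 (log2, SE 0.318, adjusted p = 1.69e-04). With siControl it read 30.2, 21.4 and 14.0, with siArp4 3.37, 7.56 and 2.004, and with siArp4+CK666 5.29, 10.49 and 11.6. Its fall by 2.37 with siArp4 (SE 0.715, adjusted p = 0.00422) rests on counts of a few reads per library and did not pass without siControl replicate 1 (-2.05, adjusted p = 0.0429) or without siControl replicate 2 (-2.39, adjusted p = 0.0181).

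**Figure D2:**
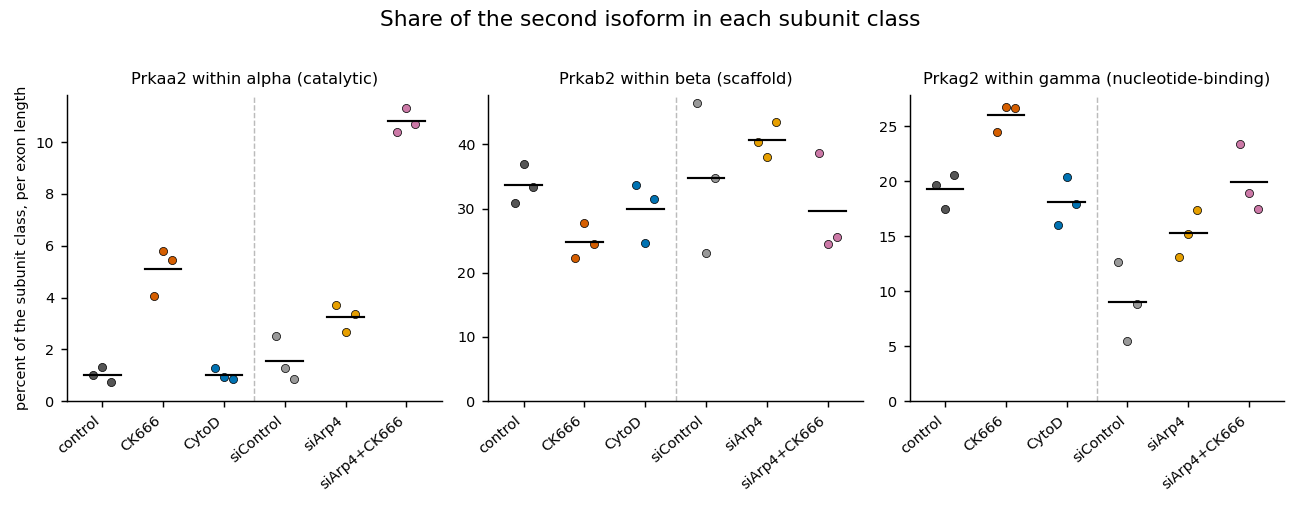
Share of Prkaa2, Prkab2 and Prkag2 in their subunit class (y axes, percent of estimated counts per kilobase of exon, starting at 0) in each library, by group on the x axes; points are libraries, bars are group means and the dashed line parts the experiments. The Prkaa2 share averages 5.09% with CK666 against 1.02% in control and 10.8% with siArp4+CK666 against 3.25% with siArp4.

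Of the upstream kinases, Stk11 (LKB1; chr10:80115803-80130682, plus strand), a tumour suppressor that also activates the AMPK-related kinases, showed no difference between the untransfected groups that passed. It read 1935, 1810 and 1920 normalized counts in control, 2606, 1423 and 1828 with CK666, and 1897, 2025 and 1671 with CytoD. The CK666 libraries spanned both other groups, CK666 replicate 1 being the highest of the 9. The estimates were 0.05 for CK666 (95% interval -0.33 to 0.43) and -0.02 for CytoD (-0.40 to 0.36) against control, and without CK666 replicate 1 the CK666 estimate was -0.21 (adjusted p = 0.141). In the second experiment Stk11 read 2474, 8644 and 4099 with siControl, 2864, 2735 and 2357 with siArp4, and 1921, 2423 and 2939 with siArp4+CK666. Its longest transcript had the highest GC content of the 8 (59.5%), and siControl replicate 2, with the GC trend given above, was its highest library by far. The estimates of -0.94 for siArp4 (SE 0.403, adjusted p = 0.0570) and -1.06 for siArp4+CK666 (SE 0.403, adjusted p = 0.0241) did not pass. Without siControl replicate 2 they were -0.32 (adjusted p = 0.371) and -0.44 (adjusted p = 0.177), and without siControl replicate 1 they were -1.27 (adjusted p = 2.03e-04) and -1.39 (adjusted p = 3.30e-05). With the GC trend of each library removed they were -0.565 (adjusted p = 0.0602) and -0.63 (adjusted p = 0.0303). Stk11 shares 232 exon bases with Cbarp on the other strand, a gene with a mean count of 265.

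Camkk2 (chr5:122731170-122779409, minus strand), the calcium-activated kinase upstream of AMPK, read 964, 543 and 627 normalized counts in control, 423, 573 and 609 with CK666, and 561, 484 and 412 with CytoD. The groups overlapped, control replicate 1 standing above all other libraries, and neither difference from control passed (-0.41, adjusted p = 0.154, and -0.55, adjusted p = 0.0469). With siControl Camkk2 read 378, 205 and 203, with siArp4 136, 83.2 and 154, and with siArp4+CK666 131, 141 and 127. Both knockdown groups lay below siControl with no overlap. Camkk2 fell by 1.07 with siArp4 (log2, SE 0.339, adjusted p = 0.00661), a 2.10-fold difference, and the estimate with siArp4+CK666 was -0.98 (SE 0.339, adjusted p = 0.0123). The first did not pass with edgeR (adjusted p = 0.0265), without siControl replicate 1 (-0.71, adjusted p = 0.0387), without siArp4 replicate 1 or 2, or without any 1 siArp4+CK666 library (adjusted p from 0.0118 to 0.0585). The second passed without siControl replicate 2 (-1.13, adjusted p = 0.00450) or without siArp4 replicate 2 (adjusted p = 0.00844). With the GC trend of each library removed they were -0.988 (adjusted p = 0.0260) and -0.885 (adjusted p = 0.0453). With the length trend removed both passed, at -1.111 (adjusted p = 2.53e-04) and -1.095 (adjusted p = 2.67e-04).

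**Figure D3:**
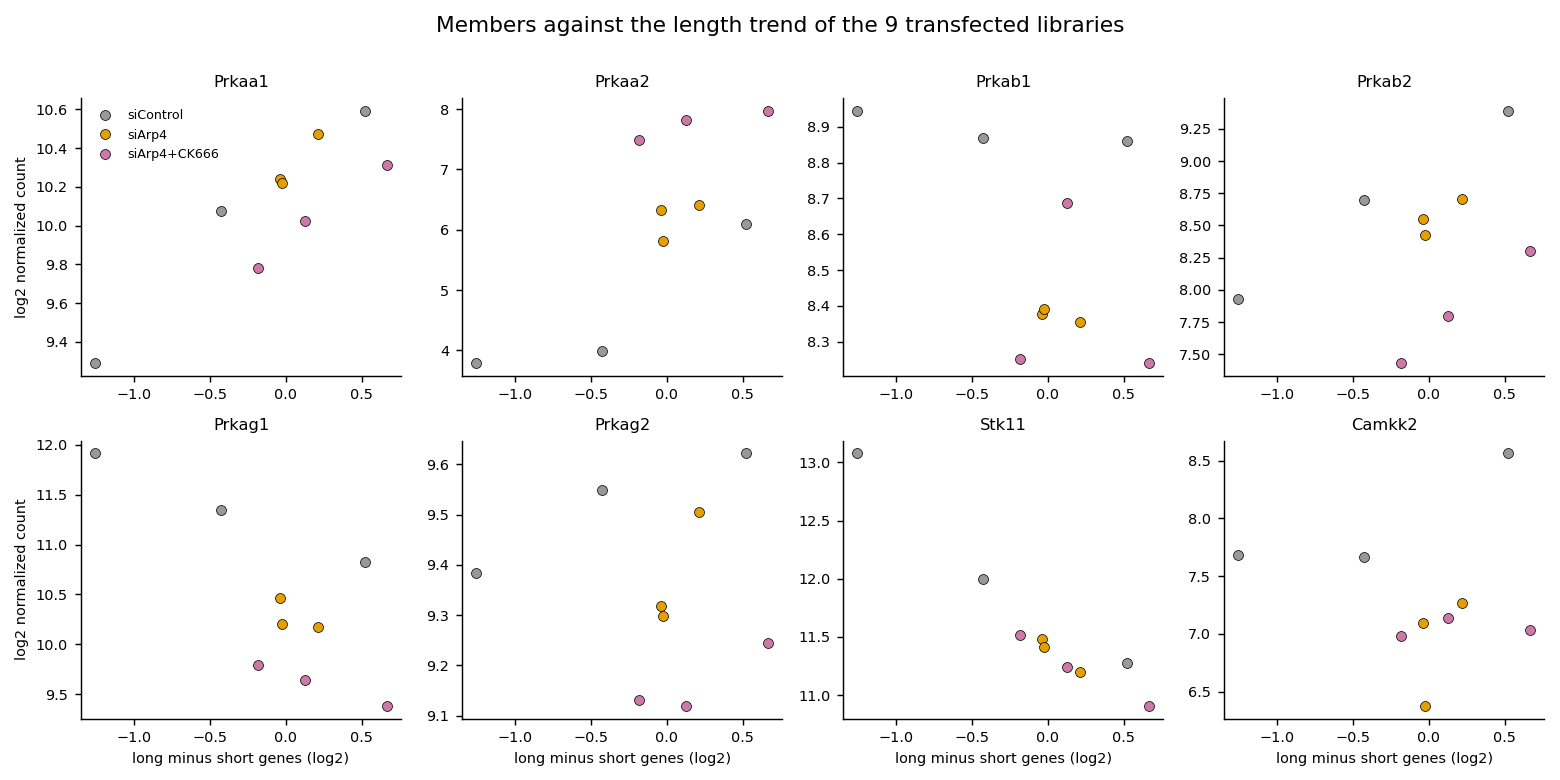
Log2 normalized counts of the 8 genes (y axes, a log scale that does not start at 0) against the median log2 deviation of long minus short genes (x axes, transcripts of 5000 bases or more minus those under 2000) in the 9 transfected libraries, each point a library coloured by group. siControl replicate 2, at -1.26 on the x axis, has the lowest Prkaa1 and Prkaa2 and the highest Stk11 and Prkag1 counts.

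The comparisons were then read by how many of the 8 genes passed an adjusted p of 0.01 (DESeq2, Benjamini-Hochberg over all genes tested) and how many were called, which also took an absolute log2 fold change over 1. Prkaa2 is left out of the counts where its difference is a description. With CK666 against control 2 of the other 7 passed, Prkag1 and Prkab2, both lower, where 14.7% of all genes tested passed in that direction. None passed as higher, where 15.3% of all genes did, and none was called, where 11.0% were. Of these 7, 3 had an unadjusted p under 0.05, edgeR passed 2, and the median log2 fold change was -0.24, that of all genes being 0.01. With CytoD against control Prkaa1 passed as higher (13.6% of all genes) and Prkab2 as lower (16.0%), none was called (9.12%), 4 had an unadjusted p under 0.05, and edgeR passed 0. Between CK666 and CytoD 2 of the 7 passed, Prkaa1 and Prkag1, both lower (14.9% of all genes), none passed as higher (16.9%) and none was called (11.8%), with 2 at an unadjusted p under 0.05 and 2 passed by edgeR. These comparisons share their libraries.

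In the second experiment siArp4 against siControl gave 2 of the 8, Prkag1 and Camkk2, both lower, against 13.1% of all genes. None was higher, where 11.9% of all genes were, and both were called, against 16.2%. The siArp4+CK666 libraries against siControl also gave 2, Prkaa2 as higher (14.0% of all genes) and Prkag1 as lower (15.8%), and both were called (20.4%). For Prkaa2 the limit set by how the family was chosen applies here too. The median log2 fold change of the 8 there was -0.69 and that of all genes -0.05. Without siControl replicate 2, 4 passed and were called. In that fit 4629 of the 13943 genes tested passed and 2817 were called. Between siArp4+CK666 and siArp4 none of the 8 passed or was called by DESeq2, where 3.82% of all genes were higher, 6.07% lower and 5.75% called. For that pair 2 of the 8, Prkaa2 and Prkag1, had an unadjusted p under 0.05, and edgeR passed 0. Without siControl replicate 1, and likewise without replicate 2, both passed and Prkaa2 was called. Among all genes 1819 of 13776 passed and 899 were called in the first of these fits, and 1975 of 14807 and 926 in the second.

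**Figure D4:**
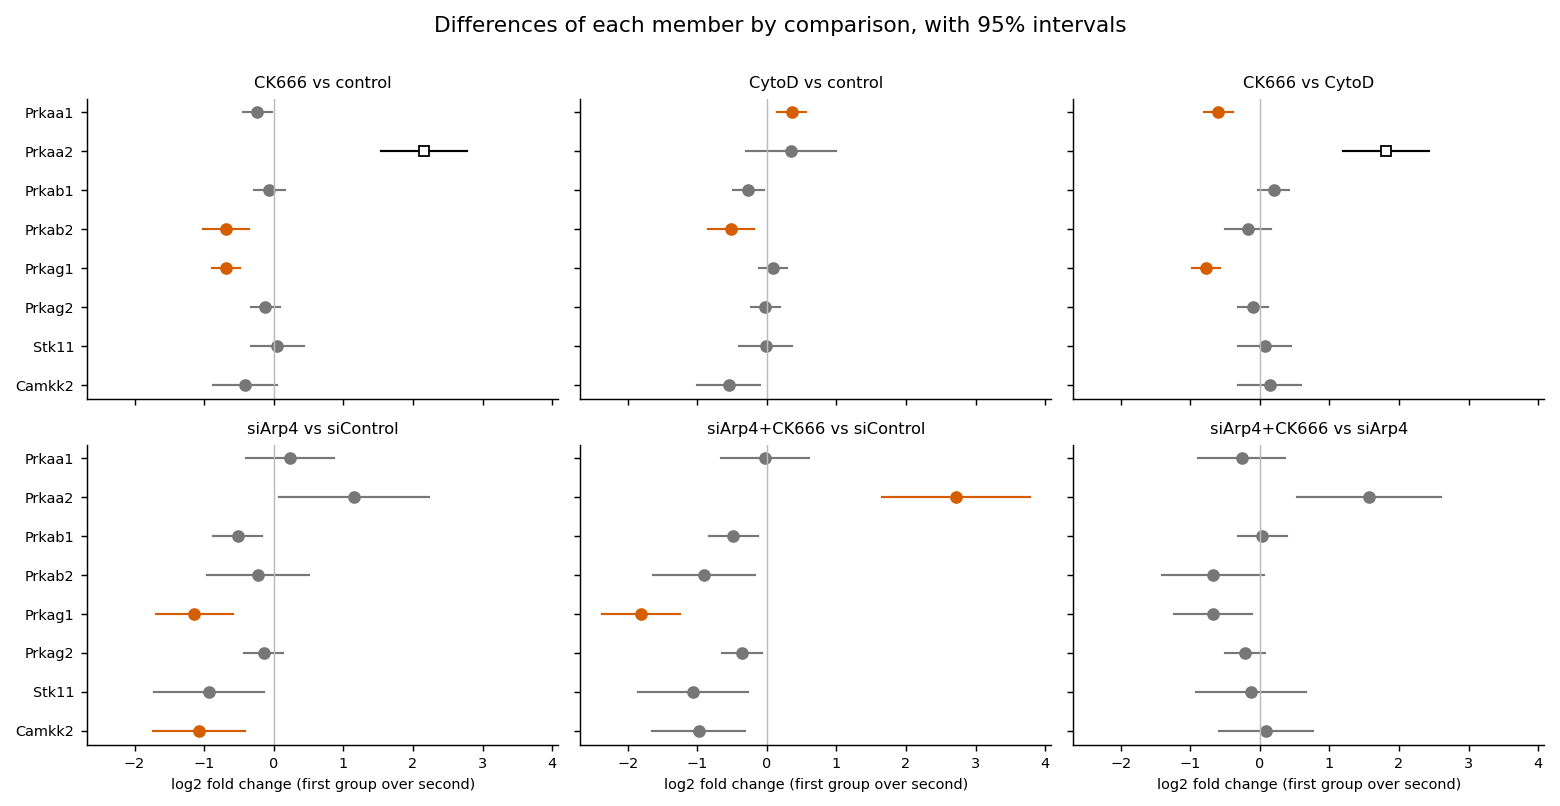
Log2 fold change of each of the 8 genes (x axes, first group over second) in 6 comparisons, with 95% intervals as lines; orange marks an adjusted p under 0.01, grey the others, and open squares the 2 Prkaa2 values that are description only. Prkaa2 lies to the right of 0 at 2.16 and 2.72, and Prkag1 to the left at -0.68, -1.14 and -1.81.

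Whether CK666 acted differently in knockdown cells was asked by an interaction over all 18 libraries, the CK666 difference within siArp4 cells minus that in untransfected cells. None of the 7 genes other than Prkaa2 passed or was called by DESeq2, against 3.76% of all genes higher, 4.06% lower and 4.42% called, 0 had an unadjusted p under 0.05, and edgeR passed 0. For Prkag1 the difference was 0.01 (95% interval -0.60 to 0.62), the CK666 estimates being -0.68 and -0.67. For Prkaa2 it was -0.60 (SE 0.626), from 2.16 in untransfected and 1.57 in knockdown cells, and is a description. The intervals of the 8 were between 0.548 and 2.455 wide on the log2 scale, so equal responses are not shown. In this contrast transfection and knockdown cannot be told apart.

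The levels were also ordered over all 6 groups, with size factors computed over the 18 libraries, and here experiment and transfection cannot be told apart. Prkaa2 was highest with siArp4+CK666 (mean 221) and CK666 (211), whose ranges overlapped, followed with a gap by siArp4 (75.6), CytoD (61.0), control (47.6) and siControl (32.9), each of which overlapped the next. Prkag1 ran from siControl (2793) through CytoD (1492), control (1396), siArp4 (1281) and CK666 (862) to siArp4+CK666 (795), and of these neighbours siControl and CytoD, and siArp4 and CK666, did not overlap. Camkk2 and Prkab1 were highest in control (692 and 626) and lowest in siArp4 (128 and 340). Scaled to exon length, the control libraries held 31.9 ± 1.91 (SD, n = 3) estimated counts per kilobase of exon and 1000000 counts for Prkag1, 28.9 ± 0.691 for Prkaa1 and 19.3 to 20.4 for Stk11, then 10.2 ± 0.302 for Prkab1, 7.61 ± 0.377 for Prkag2, 5.18 ± 0.548 for Prkab2, 3.15 ± 0.973 for Camkk2 and 0.297 ± 0.0814 for Prkaa2.

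The genes around AMPK were read from 8 lists that hold 62 genes, 60 of which were tested, and which were written with earlier results of these data known. With CK666 13 passed as higher, where 15.3% of all genes did, 12 as lower (14.7%), and 7 were called (11.0%). Among them Txnip, an arrestin that holds back glucose uptake and is degraded after phosphorylation by AMPK, read 2395 to 2535 normalized counts in control and 117 to 140 with CK666, a fall by 4.26 on the log2 scale (SE 0.113). Nuak1, an AMPK-related kinase activated by LKB1, fell by 1.66 (SE 0.185), and the adenylate kinase Ak4 by 1.21 (SE 0.299). Sesn2, a stress-induced sestrin tied to AMPK activation, rose by 1.11 (SE 0.115), from 1285 to 1422 in control to 2532 to 3140 with CK666, and Acacb, the mitochondrial acetyl-CoA carboxylase that AMPK inhibits, by 1.43 (SE 0.287). Adjusted p for these, by DESeq2, was at most 2.80e-04.

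With CytoD 12 of the 60 passed as higher (13.6% of all genes), 5 as lower (16.0%) and 8 were called (9.12%). The called rises were those of Lipe, the hormone-sensitive lipase (2.13, SE 0.256), Acacb (1.77, SE 0.286), the sestrins Sesn3 (1.59, SE 0.194) and Sesn1 (1.09, SE 0.166), the kinase Mark1 (1.08, SE 0.120) and Txnip (1.02, SE 0.087). The called falls were Pfkfb3, a producer of the glycolytic activator fructose 2,6-bisphosphate (-1.18, SE 0.204), and Ak4 (-1.17, SE 0.299). Between CK666 and CytoD 11 passed as higher (16.9% of all genes), 16 as lower (14.9%) and 10 were called (11.8%), with Txnip lower by -5.29 (SE 0.112), Sesn3 by -1.55 and Lipe by -1.19, and Pfkfb3 (1.15) and Hdac4 (1.05) higher.

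With siArp4 7 of the 60 passed as higher (11.9% of all genes), 11 as lower (13.1%) and 11 were called (16.2%). Ak4 (1.501, SE 0.232), the AMP deaminase Ampd3 (1.33, SE 0.392), the TAK1 adaptor Tab2 (1.14, SE 0.236) and the glycogen synthase Gys1 (1.07, SE 0.140) rose, and Txnip (-1.48, SE 0.443), Mtfr1l (-1.25, SE 0.249), Map3k7, which encodes TAK1 (-1.19, SE 0.280), Hdac5 (-1.15, SE 0.376), Sesn1 (-1.04, SE 0.139) and Snrk (-1.03, SE 0.202) fell. The genes called were 10 without siControl replicate 1 and 9 without replicate 3. Without replicate 2 they were 7, and Txnip (-0.69, adjusted p = 0.0139) and Hdac5 (-0.56, adjusted p = 0.0326) did not pass. Without replicates 1, 2 and 3 in turn, 3198 of 14202, 2294 of 14375 and 2149 of 13916 of all genes were called. With all libraries it was 2494 of 15415. With siArp4+CK666 against siControl 16 passed as higher (14.0% of all genes), 10 as lower (15.8%) and 13 were called (20.4%). There Txnip fell by 4.56 (SE 0.444), from 4993 to 20810 normalized counts to 407 to 562. Sesn1 (-2.002, SE 0.148), the sterol regulator Srebf2 (-1.78, SE 0.128) and Brsk1 (-1.18, SE 0.327) also fell, and Ampd3 (1.64), Tab2 (1.47), Ak4 (1.36), Rptor (1.30), Sik3 (1.12) and Sik1 (1.12) rose. Without siControl replicate 1 the genes called were 19, without replicate 2 they were 13, with Txnip at -3.76, and without replicate 3 they were 12. In those fits 4019 of 14627, 2817 of 13943 and 2727 of 14347 of all genes were called, against 3150 of 15415 with all libraries. Between siArp4+CK666 and siArp4 3 passed as higher (3.82% of all genes), 3 as lower (6.07%) and 2 were called (5.75%), Txnip (-3.08, SE 0.444) and Srebf2 (-1.20, SE 0.128). The median log2 fold change of the 60 genes lay between -0.02 and 0.25 in these 6 comparisons, and that of all genes between -0.05 and 0.02.

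Other cell states moved with the groups. The 5 proliferation markers summed to 27810 to 29280 normalized counts in control, 11330 to 12310 with CK666 and 13220 to 13520 with CytoD, and to 8474 to 9910, 3455 to 3731 and 861 to 1062 with siControl, siArp4 and siArp4+CK666. All 5 passed as lower in each of the 5 comparisons other than CK666 against CytoD. The 5 adipocyte markers summed to 919 to 929 in control, 1712 to 2570 with CK666 and 2266 to 2629 with CytoD, and to 2156 to 2930, 1162 to 1322 and 3529 to 4196 in the transfected groups, with Lep at 0 in all 18 libraries. Their part in the values of Prkaa2 and Prkag1 was not tested.

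Prkaa2 had the widest range of the 8 over the 6 groups, 2.75 between the highest and lowest group mean on the log2 scale. Pearson r of log2 normalized counts over the 18 libraries was ranked among 9805 genes with a mean of at least 100 and a descriptive symbol. Symbols in the style of predicted or clone-named genes, and any that open with a capital letter followed by a digit, were left out. The 5 genes most like it were Nceh1 (0.951), Tfb2m (0.936), Prl2c5 (0.935), Itprid2 (0.933) and Stau2 (0.923). The libraries share their groups, so r mostly follows the 6 group means, and siControl replicate 2 and its trends enter every one of these values. Nceh1 read 291 to 302 in control and 528 to 759 with CK666, and 331 to 379 with siArp4 and 508 to 765 with siArp4+CK666. Prl2c5 belongs to a family of near-identical genes, and its counts are uncertain.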

How the data were processed

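RNA was sequenced as unstranded read pairs in 18 libraries. Per the labels and the methods of the study, the authors quantified transcripts with Salmon 1.2.1 at default settings against GENCODE annotation of GRCm38 (mm10), and deposited estimated counts (expected counts) per gene without scaling. How transcripts were summed to genes is not given in the sources used here. Every column matched a sample, and 54094 of 54347 gene identifiers matched a symbol. Expected counts were rounded to whole numbers, and no library sum shifted by more than 277. The 9 libraries of each experiment were fitted with DESeq2 1.42.0 in R 4.3.3 (Wald test, two-sided, group as the only term, all genes kept, independent filtering at 0.01), after the study's methods, and the interaction over all 18. Benjamini-Hochberg adjustment ran over all genes tested. edgeR 4.0.16, in its quasi-likelihood test, was an alternative. Levels per length used the union of exons, and promoters came from RefSeq (GRCm38.p6), with 10 entries for the 8 genes.

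The members and gene lists were chosen with earlier results of these data known. Genes named beside the 8 are Prkag3, Actl6a, the 5 nearest genes and, per list and comparison, at most the 2 largest rises and 2 largest falls among called genes whose mean normalized count reached 50. Alternatives were other size factors, a filter at 10 counts in 3 libraries, other sets of libraries, a replicate block, a test against a 2-fold change, leaving out each library, other transcript lengths and, chosen after the data were seen, removal of each library's length trend or GC trend. Precision is limited by 3 libraries a group.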

Additional observations from a re-analysis of the deposited data

Results flagged for a closer look

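Each gene below had a CK666 response that differed between knockdown and untransfected cells by the test of the difference itself, the interaction over 18 libraries (DESeq2, log2 scale, adjusted over all genes). None of them is among the 8 AMPK genes. All come from the lists above, which were written with earlier results of these data known. Of the 60 list genes tested, 5 passed as higher, where 3.76% of all genes did, and 2 as lower (4.06%). For Prkag3 the difference was 2.44 (adjusted p = 0.00440), from -1.32 in untransfected to 1.11 in knockdown cells, at mean counts of 4.31 to 69.5 per group. The knockdown value had an adjusted p of 0.402, edgeR gave the difference an adjusted p of 0.0260, and 10 of 18 fits that each left out 1 library passed it (largest adjusted p 0.0297). For Nuak1 it was 2.42 (adjusted p = 5.93e-13), from -1.66 to 0.76, and the knockdown value did not pass by itself (adjusted p = 0.0245). For Sik1 it was 1.03 (adjusted p = 2.94e-04), from -0.31 to 0.73, and the untransfected value did not pass by itself (adjusted p = 0.103). Foxo3 differed by 0.69 (adjusted p = 0.00516), from -0.31 to 0.39, and did so in 8 of the 18 fits (largest adjusted p 0.0311) and not by edgeR (adjusted p = 0.0259). Neither of its 2 values passed by itself (adjusted p = 0.0261 untransfected and 0.117 in knockdown cells). Tbc1d1 also differed by 0.69 (adjusted p = 5.38e-05), from -0.38 to 0.32, and the knockdown value did not pass by itself (adjusted p = 0.133). Sesn1 differed by -0.84 (adjusted p = 6.16e-04), from -0.14 to -0.97, and the untransfected value did not pass by itself (adjusted p = 0.574). Srebf2 differed by -0.48 (adjusted p = 0.00127), from -0.73 to -1.20. Nuak1, Sik1, Sesn1, Srebf2 and Tbc1d1 passed in all 18 fits, and with edgeR the adjusted p was 1.28e-04, 0.00992, 0.00931, 0.0292 and 0.0133 in that order.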

How the results depend on the processing

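With other size factors (TMM) the 8 genes gave 56 results on the same side of the threshold, and no result changed direction while past it. These include the Prkaa2 values that are description only, those with CK666 in the first experiment and in the interaction, which are not tests. Of the 8 genes, those past the adjusted p with CytoD against control went from 2 to 0 with edgeR, with all 18 libraries in 1 fit and under the replicate block, and ranged from 0 to 2 when 1 library was left out. Among all genes 4067 of 13717 passed in the main fit and 3144 of 13308 with edgeR. With all 18 libraries it was 2901 of 14001, and under the replicate block 3666 of 13736. With siArp4 against siControl, 2 became 1 with edgeR, 1 with the groups compared alone and 1 after removing the GC trend. Those called there were 1 with edgeR, 1 with the groups compared alone, 1 after removing the length trend and 0 after removing the GC trend, and both counts ranged from 1 to 3 with 1 library left out. Among all genes 3867 of 15415 passed in the main fit and 2462 of 13415 with edgeR. The groups compared alone passed 3148 of 14749, and the fit without the GC trend 4189 of 14978. Called genes were 2494, 1752, 2305 and 2516 in that order, and 2584 of 15415 after removing the length trend. With siArp4+CK666 against siControl, 2 past the adjusted p became 7 with all 18 libraries in 1 fit, 4 with the low-count filter and 4 after removing the length trend, where 4 were called. Both counts ranged from 2 to 4 with 1 library left out. Among all genes 4602 of 15415 passed in the main fit and 5683 of 16450 with all 18 libraries. It was 4817 of 13515 with the low-count filter and 5463 of 15415 after removing the length trend, where 3122 were called. Between siArp4+CK666 and siArp4, 0 became 2 with the groups compared alone, 1 with all 18 libraries, 2 after removing the length trend and 1 after removing the GC trend, with 1 called under each of the 4, and 0 to 2 passed and 0 to 1 were called with 1 library left out. Among all genes 1395 of 14098 passed in the main fit, 2318 of 14839 with the groups compared alone and 2030 of 14001 with all 18 libraries. After removing the length trend it was 1951 of 15415, and after removing the GC trend 1576 of 14539. Called genes were 811, 944, 940, 903 and 865 in that order. A test against a 2-fold change called 0 of the 8 in every comparison, the same Prkaa2 values being description only. With CK666 against control, 2 of the 7 genes other than Prkaa2 passed without each library. The cause of these changes was not tested.

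The replicate block changed no other call among the 8 genes. Same-numbered libraries were not taken as pairs, since the correlations of their deviations from the group means ran from -0.217 to 0.261 in the first experiment and from -0.658 to 0.796 in the second, and libraries correlated best with their own number in 6 of 18 and 5 of 18 matches. Over all genes, edgeR passed 2462 with siArp4 against 3867 by DESeq2, 612 against 1395 between the knockdown groups and 520 against 1056 in the interaction, calling 466 against 811 and 384 against 597 in the last comparisons, and the groups compared alone passed 2318 between the knockdown groups. The test against a 2-fold change called from 58 to 792 genes. Per longest transcript, Prkag2 took 26.1% of the gamma transcripts in control and 34.2% with CK666, and Prkab2 26.1% and 18.7% of the beta transcripts.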
